A study of Mus musculus with 17 samples.

Results

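The genes that copy the genome were followed in lung dysplasia and lung adenocarcinoma of SPC/c-Raf mice. The set holds 46 genes in 9 roles, from the origin recognition complex to the proteins that maintain DNA methylation behind the fork. A gene was measured where a transcript cluster (the array's unit of 1 gene) carried its symbol and no other. This held for 42 of the 46 genes, out of 23238 transcript clusters on the arrays, and each of the 42 had 1 such transcript cluster. Pcna, Rfc2, Lig1 and Rrm2 had no row of that kind and were not analysed here.

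SPC/cRaf transgenic mice express c-Raf, a kinase that passes the signal of Ras to MEK and ERK, from the surfactant protein C promoter in alveolar epithelium, and lung tumours form. Cells were cut with a laser from haematoxylin-stained cryosections for 17 arrays of the type Affymetrix Mouse Exon 1.0 ST. Adenocarcinoma came from 4 arrays of SPC/cRaf transgenic mice aged 14, 11.5, 12 and 13 months, the second of them labelled female. Dysplasia came from 4 arrays of male SPC/cRaf transgenic mice aged 6, 5, 6 and 6 months. Lung of the same mice that looked normal under the microscope, called unaltered lung below, came from 4 further arrays with the same 4 animal labels. Non-transgenic lung came from 5 wild-type mice aged 7 to 11 months, 3 of them labelled female. The label of 1 array of each transgenic group names 2 animals. All values are log2 RMA levels and all fold changes are differences of group means on the log2 scale. Levels of different genes are not comparable, because each transcript cluster has its own probes.

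Before S phase, the origin recognition complex with Cdc6 and Cdt1 loads the MCM2-7 helicase onto origins, and geminin blocks a further round of loading. The Dbf4-dependent kinase and cyclin E with its kinase then recruit Cdc45 and the GINS complex, which turn the helicase on. DNA polymerase alpha with primase starts each strand, the clamp loader places the sliding clamp, and polymerases epsilon and delta extend the strands. In quiescent adult lung few cells are in S phase. Many of these genes are known targets of the E2F factors, which the retinoblastoma family restrains. In pieces of tissue, a larger share of cells that copy their DNA and more of these transcripts per cell cannot be told apart.

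The groups differed in more than the lesion. Ages overlapped between dysplasia and unaltered lung and in no other comparison, so age and group cannot be told apart in the others. Endothelial markers were lower in dysplasia than in unaltered lung for 10 of 10 genes, and alveolar type II cell markers were higher for 8 of 9. The label of sex was at odds with the Y-linked genes Eif2s3y and Kdm5d on 4 arrays, and labelled sex was therefore left out of the fit. These 2 genes were low in non-transgenic replicates 4 and 5 and high on the other 15 arrays, and the 2 low arrays also stood apart in cell markers. Their mean level of 7 macrophage markers was 8.58 and 8.45, against 7.99 to 8.04 in replicates 1 to 3. The median of all transcript clusters per array ran from 6.67 to 6.85, and the unaltered arrays held the lowest value.

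Dysplasia carried higher levels of the replication genes than unaltered lung of the same animals. A gene is called where limma's moderated test, with the animal as a random block, gave a Benjamini-Hochberg adjusted p under 0.05 over all transcript clusters. Of the 42 measured genes, 22 were called higher in dysplasia and 0 lower, which is 52.4% higher, while 15.1% of all transcript clusters were called higher and 5.32% lower. At an unadjusted p under 0.05 in the same limma test, 27 were higher and 0 lower, against 5375 higher and 2303 lower of all 23238 transcript clusters. The median log2 fold change of the 42 genes was 0.27, against 0.06 over all transcript clusters. Within the 4 animal labels, 30 of the 42 genes were higher in dysplasia in all 4. This was not counted over all transcript clusters, whose array median was also higher in dysplasia under each of the 4 labels. Of the 22 called genes 21 were higher in all 4, but they were called on these same arrays, so this is no separate support. The exception, Prim2, differed by -0.01 in the animal of replicate 3. With the animal as a fixed block the number called was 9, all higher, among 6.18% of all transcript clusters called higher: Cdc6, Mcm2, Mcm5, Dbf4, Rfc4, Prim1, Pole, Rrm1 and Uhrf1. Without the arrays whose labels name 2 animals, 12 were called, all higher, with 7.59% of all transcript clusters called higher and 2.9% lower. Rescaling the arrays by quantile normalization gave 17 higher and 1 lower, Pola2, and the calls over all transcript clusters then split into 9.54% higher and 10.1% lower. Cyclic loess gave 17 higher and 1 lower as well, again Pola2, with 9.88% of all transcript clusters called higher and 8.74% lower.

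Adenocarcinoma against non-transgenic lung gave 16 genes higher and 5 lower, with 13.6% of all transcript clusters called higher and 16.4% lower. The median log2 fold change was 0.15 over the 42 genes and 0.01 over all transcript clusters. The 5 lower genes were Gins3, Gins4, Cdc7, Pola2 and Rpa1, a smaller share of the 42 genes than the 16.4% of all transcript clusters. With labelled age as a covariate 8 of the 42 genes were called, 4 higher and 4 lower, with 6.6% of all transcript clusters called higher and 11.9% lower, so these counts lie near the background. Among them were 7 of these 21: Cdt1, Gins2, Gins3, Mcm10, Pola2, Rpa1 and Uhrf1. Against non-transgenic replicates 4 and 5 alone 6 were called higher and 3 lower, with 10.2% and 15.7% of all transcript clusters, and among these 9 were Cdt1, Gins3, Mcm10, Pola2, Pole, Rpa1, Tk1 and Uhrf1.

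Dysplasia against non-transgenic lung gave 10 genes higher and 2 lower, Gins3 and Pola2, with 7.62% of all transcript clusters called higher and 9.86% lower. The lower calls were a smaller share of the measured genes than of all transcript clusters. Against non-transgenic replicates 1 to 3 alone 16 genes were called higher and 4 lower, with 11.3% and 11.1% of all transcript clusters. Against replicates 4 and 5 alone 4 were higher and 1 lower, which is near the background of 6.77% higher and 10.3% lower. Of the 12 calls, 5 were lost without some 1 array: those of Gins3 (8 arrays, adjusted p up to 0.113), Pola1 (7 arrays, up to 0.113), Rfc5 (6 arrays, up to 0.109), Tk1 (5 arrays, up to 0.0963) and Ccne2 (dysplasia replicate 3, 0.0544). Adenocarcinoma against unaltered lung gave 20 genes higher and 0 lower, with 16.8% of all transcript clusters called higher and 10.1% lower. At an unadjusted p under 0.05 in the same limma test, 26 were higher and 2 lower. The shares of all transcript clusters at that threshold, not given here, are no smaller than the 16.8% and 10.1% called. With the age covariate 2 of these 20 remained, Cdt1 and Prim1, with 2.31% of all transcript clusters called higher and 4.08% lower. Leaving out 1 array at a time ended 6 of the 20 calls, those of Ccne2, Dnmt1, Gins2, Mcm10, Pold2 and Rpa2 (adjusted p up to 0.138). These comparisons share arrays with those above, so their calls are not separate observations.

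Unaltered lung against non-transgenic lung gave 1 gene higher, Mcm10, and 8 lower, with 2.47% of all transcript clusters called higher and 11.8% lower. The 1 higher call is near its background. The lower genes were Orc6, Mcm6, Gins3, Rfc3, Prim1, Pold2, Rpa1 and Rrm1. The median log2 fold change was -0.15 over the 42 genes and -0.08 over all transcript clusters. These medians were -0.03 and 0.02 with quantile normalization, and -0.05 and -0.01 with cyclic loess. Quantile normalization gave 4 calls, those of Mcm10, Gins3, Prim1 and Rrm1, with 4.18% of all transcript clusters called higher and 3.54% lower. The age covariate gave 0, with 0.405% of all transcript clusters called higher and 0.37% lower. Leaving out 1 array at a time ended the calls of Mcm6, Mcm10, Orc6, Pold2 and Rfc3 (adjusted p up to 0.151), and 4 calls were left without unaltered replicate 2. Between adenocarcinoma and dysplasia 1 gene was called, Cdt1, which was higher in adenocarcinoma. This is below the background of 4.48% of all transcript clusters called higher and 7.48% lower. Genes not called there are not thereby shown to be equal. At an unadjusted p under 0.05 in the same limma test, 4 were higher and 4 lower. Shares of all transcript clusters at that threshold are again not given, and are no smaller than the 4.48% and 7.48% called. These 4 and 4 are therefore not read as a change of the set. The median log2 fold change of the 42 genes there was -0.01.

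**Figure D1:**
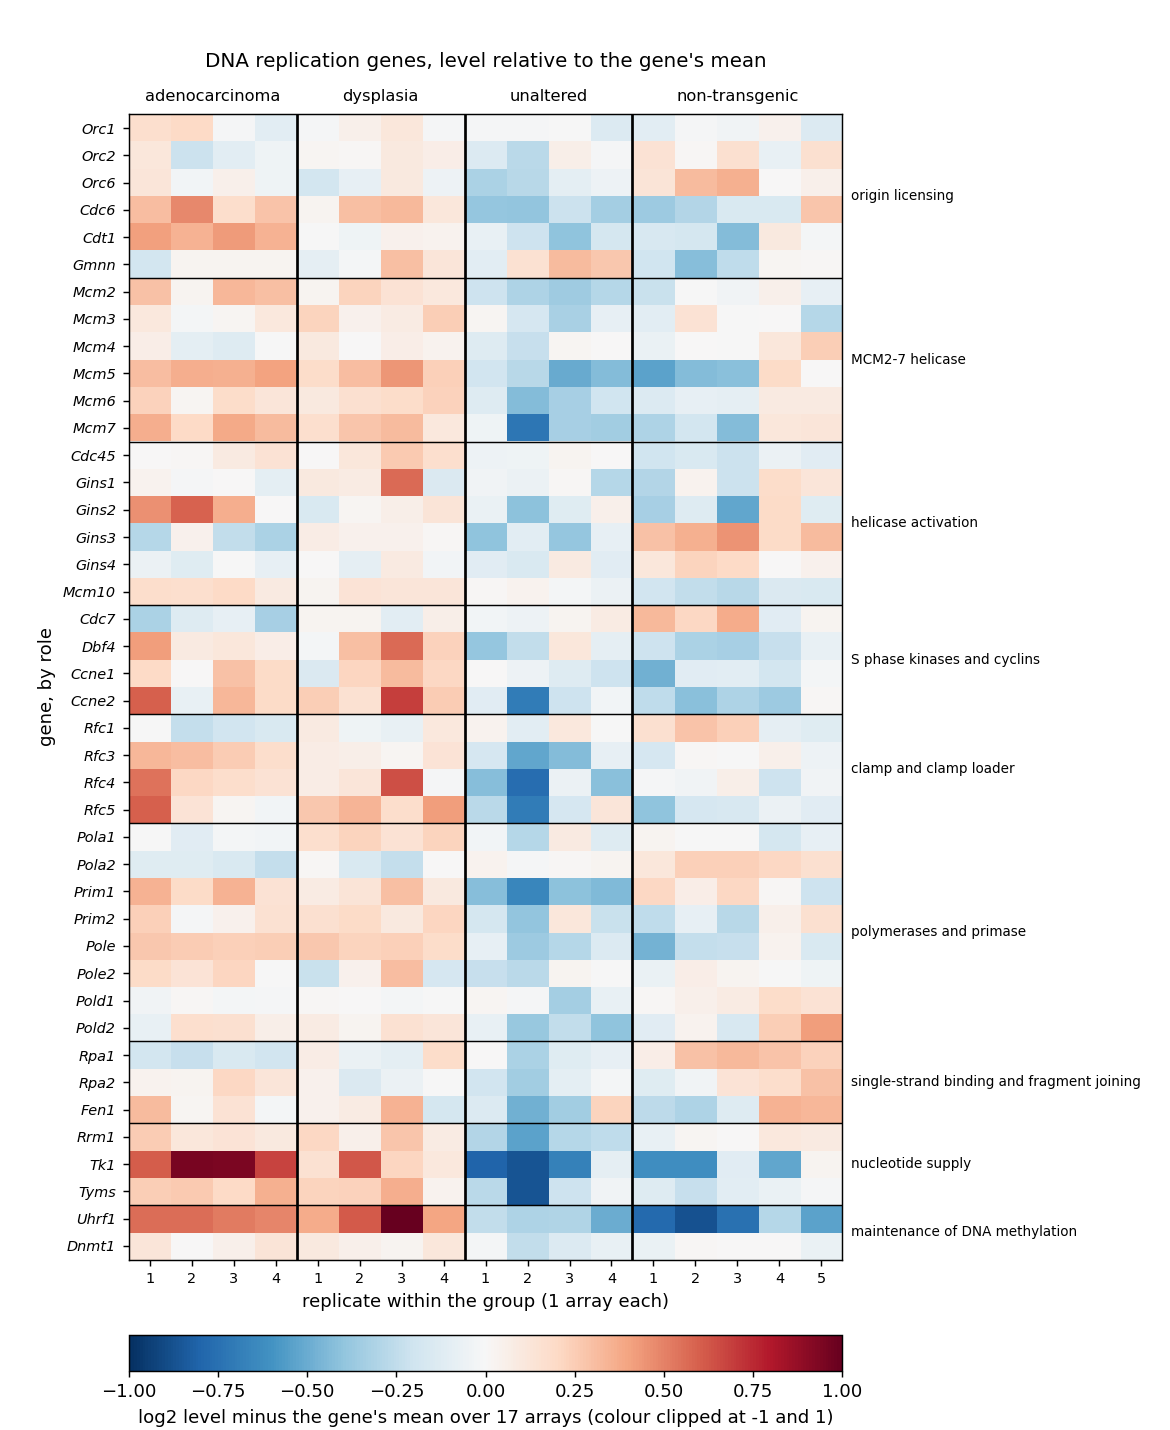
Log2 level of each of the 42 measured genes (rows, by role) on each of the 17 arrays (columns, by group and replicate), minus the gene's mean over the arrays. Rows of Mcm5, Mcm7, Prim1 and Uhrf1 are red on the adenocarcinoma and dysplasia arrays and blue on the unaltered arrays, while Gins3, Pola2 and Rpa1 are red on the non-transgenic arrays.

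Promoter windows of 6 genes that were higher in dysplasia are shown, as examples of the words that E2F factors are known to bind. RefSeq promoter entries (GRCm38.p6, 250 bases before to 50 after the transcription start) were found for 34 of the 42 genes. They were searched on both strands for the words TTTCCCGC, TTTCGCGC, TTTGCCGC and TTTGGCGC, which can overlap each other in opposite directions. A gene counted as matched where any of its entries held at least 1 word. This held for 10 of 19 genes called higher in dysplasia (52.63%) and for 4 of 15 other measured genes (26.67%). Of all 27025 genes of the table it held for 704 (2.605%). The NF-Y word CCAAT, on either strand, stood in 13 of the 19 (68.42%), in 8 of the 15 (53.33%) and in 11096 of the 27025 genes (41.06%). In the 250 bases before the start alone, the E2F words stood in 9 of the 19 (47.37%), in 1 of the 15 (6.667%) and in 2.157% of all genes. The sets were split by the calls above, so these shares are a description. The windows below give 60 bases of the gene's strand, 5′ to 3′, with the matched E2F word in capitals. In Mcm5 and Mcm6 a word on each strand overlaps the other, and the capitals cover both.
Cdc6: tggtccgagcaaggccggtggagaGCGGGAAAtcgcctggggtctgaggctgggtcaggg
Mcm5: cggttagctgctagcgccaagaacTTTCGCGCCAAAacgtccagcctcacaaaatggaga
Mcm6: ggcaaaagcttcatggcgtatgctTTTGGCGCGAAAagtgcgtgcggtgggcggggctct
Mcm7: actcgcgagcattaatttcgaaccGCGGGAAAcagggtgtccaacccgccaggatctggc
Rfc3: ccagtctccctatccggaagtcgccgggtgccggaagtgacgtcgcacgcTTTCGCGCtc
Uhrf1: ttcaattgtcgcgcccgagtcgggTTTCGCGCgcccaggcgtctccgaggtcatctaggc
The Cdc6 window lies at chr11:98907989-98908048 on the plus strand, with its word from base -138 to -131 of the start. That of Mcm5 lies at chr8:75109332-75109391 on the plus strand, and that of Uhrf1 at chr17:56304104-56304163 on the plus strand. On the minus strand lie the windows of Mcm6 at chr1:128359780-128359839, of Mcm7 at chr5:138172013-138172072 and of Rfc3 at chr5:151651209-151651268. The word shown for Rfc3 is the nearest of these to the start, from base -10 to -3. All 6 windows are upstream of the start.

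**Figure D2:**
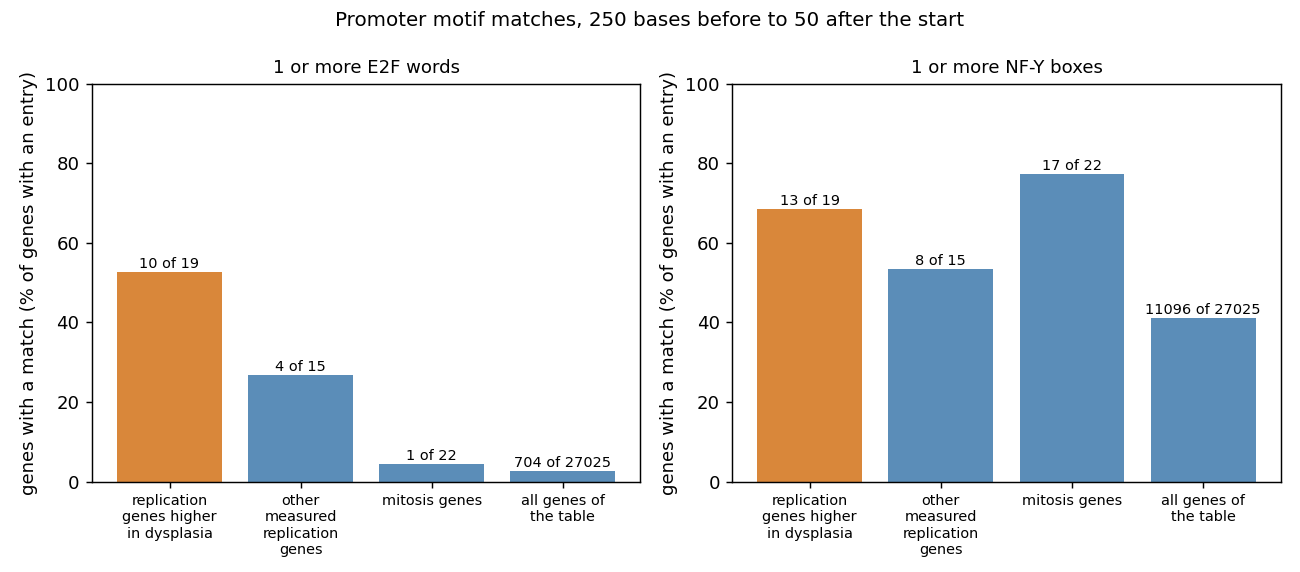
Share of genes (y axis, % of genes with a promoter entry) with 1 or more E2F words (left panel) or NF-Y boxes (right panel) in any of their 300-base entries, for 4 sets of genes, with counts above the bars. E2F words stood in 10 of 19 replication genes higher in dysplasia and in 1 of 22 mitosis genes, where NF-Y boxes stood in 17 of 22.

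Among the 6 licensing genes, Cdc6 was called higher in dysplasia than in unaltered lung, and Cdc6 and Cdt1 in adenocarcinoma than in non-transgenic lung. Of all transcript clusters 15.1% and 13.6% were called higher in these comparisons, so the call in dysplasia is near the background. Cdc6 (transcript cluster 6784054), the loader of the helicase, had levels of 6.56, 6.73, 6.42 and 6.53 in adenocarcinoma, 6.28, 6.55, 6.58 and 6.36 in dysplasia, 5.87, 5.85, 6.04 and 5.91 in unaltered lung, and 5.89, 5.96, 6.10, 6.10 and 6.53 in non-transgenic lung. Every lesion array was above every unaltered array, and non-transgenic replicate 5 reached into the lesions. Cdc6 was higher by 0.52 ± 0.10 (SE) in dysplasia than in unaltered lung (adjusted p = 0.00235), and by 0.45 ± 0.11 in adenocarcinoma than in non-transgenic lung (adjusted p = 0.00643). The second difference was 0.25 (adjusted p = 0.203) against non-transgenic replicates 4 and 5 alone, and was not called with labelled age (adjusted p = 0.465).
Cdt1 (6979636), the partner of Cdc6 in loading, had 7.48, 7.42, 7.49 and 7.42 in adenocarcinoma, 7.06, 7.03, 7.11 and 7.10 in dysplasia, 7.00, 6.87, 6.66 and 6.89 in unaltered lung, and 6.91, 6.89, 6.63, 7.17 and 7.05 in non-transgenic lung. The adenocarcinoma arrays lay above all 13 others. Cdt1 was higher by 0.52 ± 0.09 in adenocarcinoma than in non-transgenic lung (adjusted p = 0.000391). Against dysplasia the difference was 0.37 ± 0.10 (adjusted p = 0.0206), a call lost without adenocarcinoma replicate 3, dysplasia replicate 1 or dysplasia replicate 2 (adjusted p up to 0.0597). It was also lost with labelled age as a covariate (adjusted p = 0.309) and without the arrays that name 2 animals. Cdt1 is held in check by geminin in the cell, and the geminin gene Gmnn was called in none of the 6 comparisons. Orc1 and Orc2, subunits of the origin recognition complex, were not called either. Orc6, another subunit, was lower in unaltered than in non-transgenic lung by -0.35 ± 0.09 (adjusted p = 0.0149; 0.0515 without unaltered replicate 2).

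The MCM2-7 helicase, the ring that unwinds DNA at the fork, had nearly all of its genes called in dysplasia. Of its 6 genes, 5 were higher in dysplasia than in unaltered lung and 3 (Mcm2, Mcm5 and Mcm7) in adenocarcinoma than in non-transgenic lung. Of all transcript clusters 15.1% and 13.6% were called higher in these comparisons. Mcm5 (6977261) had 7.83, 7.88, 7.87 and 7.92 in adenocarcinoma, 7.70, 7.82, 7.96 and 7.76 in dysplasia, 7.32, 7.24, 7.01 and 7.08 in unaltered lung, and 6.99, 7.08, 7.10, 7.71 and 7.52 in non-transgenic lung. The lesions lay apart from the unaltered arrays, and non-transgenic replicates 4 and 5 lay near dysplasia while replicates 1 to 3 lay with the unaltered arrays. Mcm5 was higher by 0.65 ± 0.12 in dysplasia than in unaltered lung (adjusted p = 0.0016), and within the animals by 0.38 to 0.94. In adenocarcinoma it exceeded non-transgenic lung by 0.60 ± 0.13 (adjusted p = 0.00237), a difference of 0.26 (adjusted p = 0.104) against replicates 4 and 5 alone, whose part in it was not tested.
Mcm7 (6942604) had 8.37, 8.20, 8.38 and 8.32 in adenocarcinoma, 8.17, 8.28, 8.32 and 8.11 in dysplasia, 7.96, 7.28, 7.67 and 7.66 in unaltered lung, and 7.70, 7.82, 7.57, 8.12 and 8.12 in non-transgenic lung. Here too the lesions did not overlap unaltered lung, and the same 2 non-transgenic arrays were high. Mcm7 was higher by 0.58 ± 0.12 in dysplasia than in unaltered lung (adjusted p = 0.00405; 0.0776 with the fixed block). Against non-transgenic lung, adenocarcinoma was higher by 0.45 ± 0.14 (adjusted p = 0.0189), a call lost without adenocarcinoma replicate 3 or non-transgenic replicate 3 (adjusted p up to 0.0523). The same call was lost with labelled sex, with labelled age and against non-transgenic replicates 4 and 5 alone (adjusted p up to 0.417). Mcm2 rose by 0.41 ± 0.07, Mcm6 by 0.44 ± 0.07 and Mcm3 by 0.29 ± 0.08 in dysplasia (adjusted p = 0.000802, 0.000522 and 0.0179). With the fixed block Mcm6 had an adjusted p of 0.0513 and Mcm3 of 0.0746. The call of Mcm3 was also lost without dysplasia replicate 4 or unaltered replicate 3 (adjusted p up to 0.0662). Mcm4 is the subunit called in none of the comparisons, at 0.14 ± 0.07 between dysplasia and unaltered lung (adjusted p = 0.184).

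The 6 genes of helicase activation moved in different directions against non-transgenic lung. In adenocarcinoma 3 were higher, Cdc45, Gins2 and Mcm10, and 2 were lower, Gins3 and Gins4. Of all transcript clusters 13.6% were higher and 16.4% lower there. In dysplasia against unaltered lung only Gins3 was called among these 6, where 15.1% of all transcript clusters were called higher and 5.32% lower. Gins2 (6985848) had 7.11, 7.25, 7.02 and 6.66 in adenocarcinoma, 6.51, 6.68, 6.72 and 6.79 in dysplasia, 6.59, 6.25, 6.54 and 6.71 in unaltered lung, and 6.32, 6.53, 6.14, 6.85 and 6.54 in non-transgenic lung. Adenocarcinoma replicates 1 to 3 were above all other arrays, and replicate 4 lay among them. Gins2 was higher by 0.53 ± 0.14 in adenocarcinoma than in non-transgenic lung (adjusted p = 0.00917; 0.209 against non-transgenic replicates 4 and 5 alone).
Gins3 (6978386), which sits in the same complex, had 6.12, 6.44, 6.15 and 6.08 in adenocarcinoma, 6.47, 6.44, 6.44 and 6.41 in dysplasia, 5.99, 6.30, 6.01 and 6.32 in unaltered lung, and 6.70, 6.76, 6.85, 6.59 and 6.71 in non-transgenic lung. All 12 transgenic arrays were below all 5 non-transgenic arrays. Gins3 was lower by -0.52 ± 0.09 in adenocarcinoma than in non-transgenic lung (adjusted p = 0.000309), and by -0.57 ± 0.09 in unaltered than in non-transgenic lung (adjusted p = 0.00178). Dysplasia was above unaltered lung by 0.29 ± 0.08 (adjusted p = 0.0239). That last call was lost with the fixed block (adjusted p = 0.138), with quantile normalization (0.142) and without dysplasia replicate 1 or 3 or unaltered replicate 1 or 3 (up to 0.0858).
Gins4 (6980991), the subunit known as Sld5 in yeast, had 8.68, 8.62, 8.74 and 8.66 in adenocarcinoma, 8.74, 8.65, 8.83 and 8.71 in dysplasia, 8.62, 8.59, 8.83 and 8.63 in unaltered lung, and 8.85, 8.96, 8.93, 8.74 and 8.78 in non-transgenic lung. Adenocarcinoma lay just below non-transgenic lung. The difference of -0.18 ± 0.07 (adjusted p = 0.049) was no longer called without any 1 of 7 of the 9 arrays, all except non-transgenic replicates 4 and 5 (adjusted p up to 0.13), nor with quantile normalization (adjusted p = 0.292). Gins1 (6882189) had 4.77, 4.72, 4.73 and 4.63 in adenocarcinoma, 4.83, 4.81, 5.30 and 4.59 in dysplasia, 4.70, 4.67, 4.74 and 4.45 in unaltered lung, and 4.44, 4.77, 4.52, 4.92 and 4.85 in non-transgenic lung. The groups overlapped, and Gins1 was called in none of the comparisons. Mcm10, which helps to assemble the active fork, was higher in adenocarcinoma than in non-transgenic lung by 0.36 ± 0.05 (adjusted p = 5.5e-05) and in dysplasia by 0.30 ± 0.05 (adjusted p = 0.000691). Unaltered lung was above non-transgenic lung in Mcm10 by 0.19 ± 0.05 (adjusted p = 0.024), a call lost without non-transgenic replicate 2 or 3 or unaltered replicate 1 or 2 (adjusted p up to 0.0676). Cdc45, the partner of the helicase, rose by 0.21 ± 0.06 in adenocarcinoma (adjusted p = 0.0135; 0.0522 without adenocarcinoma replicate 4). Its call was also lost with labelled age, without the arrays that name 2 animals and against non-transgenic replicates 4 and 5 alone (adjusted p up to 0.192).

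Of the 4 genes for kinases and cyclins of S phase entry, Ccne2 and Dbf4 were higher in dysplasia than in unaltered lung. In adenocarcinoma Ccne1, Ccne2 and Dbf4 were higher and Cdc7 was lower than in non-transgenic lung. The shares of all transcript clusters called higher and lower were 15.1% and 5.32% in the first comparison, and 13.6% and 16.4% in the second. Ccne2 (6911682), cyclin E2, had 6.06, 5.40, 5.80 and 5.66 in adenocarcinoma, 5.72, 5.63, 6.16 and 5.72 in dysplasia, 5.35, 4.77, 5.27 and 5.44 in unaltered lung, and 5.21, 5.05, 5.16, 5.10 and 5.48 in non-transgenic lung. Dysplasia did not overlap unaltered lung, whereas adenocarcinoma replicate 2 was within the range of the lung without lesions. Ccne2 was higher by 0.60 ± 0.15 in dysplasia than in unaltered lung (adjusted p = 0.00843; 0.0686 with the fixed block). In adenocarcinoma it exceeded non-transgenic lung by 0.53 ± 0.16 (adjusted p = 0.0186), a call lost without adenocarcinoma replicate 1 or 3 (adjusted p up to 0.0701). The same call was lost with labelled sex, with labelled age and against non-transgenic replicates 4 and 5 alone (adjusted p up to 0.725).
Dbf4 (6936082), the activating subunit of the Cdc7 kinase, had 7.43, 7.10, 7.13 and 7.08 in adenocarcinoma, 6.99, 7.32, 7.58 and 7.24 in dysplasia, 6.63, 6.76, 7.13 and 6.92 in unaltered lung, and 6.81, 6.69, 6.68, 6.78 and 6.94 in non-transgenic lung. Both lesions lay above non-transgenic lung. Dbf4 was higher by 0.42 ± 0.11 in dysplasia than in unaltered lung (adjusted p = 0.0101), a call lost with only these groups in the fit and without the arrays that name 2 animals (adjusted p up to 0.0915). It was higher by 0.40 ± 0.12 in adenocarcinoma than in non-transgenic lung (adjusted p = 0.0136; 0.0539 without adenocarcinoma replicate 1). This call of Dbf4 was also lost with labelled age and against non-transgenic replicates 4 and 5 alone (adjusted p up to 0.356). Its catalytic partner Cdc7 (6933226) had 5.63, 5.81, 5.86 and 5.61 in adenocarcinoma, 5.97, 5.97, 5.84 and 6.00 in dysplasia, 5.92, 5.89, 5.97 and 6.03 in unaltered lung, and 6.27, 6.15, 6.31, 5.83 and 5.97 in non-transgenic lung. Non-transgenic replicates 1 to 3 were the highest, and replicates 4 and 5 lay with the transgenic arrays. The difference between adenocarcinoma and non-transgenic lung was -0.38 ± 0.09 (adjusted p = 0.00578), and -0.17 (adjusted p = 0.209) against replicates 4 and 5 alone. Ccne1, cyclin E1, rose by 0.35 ± 0.11 in adenocarcinoma (adjusted p = 0.0223). That call was lost without adenocarcinoma replicate 3 or 4 or non-transgenic replicate 1 (adjusted p up to 0.0739). It was also lost with labelled age, without the arrays that name 2 animals and against non-transgenic replicates 4 and 5 alone (adjusted p up to 0.546).

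The clamp loader was measured through 4 of its 5 genes, and Rfc3, Rfc4 and Rfc5, small subunits, were higher in dysplasia than in unaltered lung. There 15.1% of all transcript clusters were called higher and 5.32% lower. Rfc4 (6844598) had 7.19, 6.86, 6.83 and 6.79 in adenocarcinoma, 6.73, 6.77, 7.30 and 6.64 in dysplasia, 6.22, 5.89, 6.60 and 6.23 in unaltered lung, and 6.64, 6.61, 6.71, 6.44 and 6.61 in non-transgenic lung. The unaltered arrays were all below the lowest lesion array, dysplasia replicate 4, and 3 of them were below every other array. Rfc4 was higher by 0.62 ± 0.13 in dysplasia than in unaltered lung (adjusted p = 0.00278), and by 0.41 to 0.89 within the animals.
Rfc5 (6941423) had 7.95, 7.49, 7.38 and 7.33 in adenocarcinoma, 7.63, 7.70, 7.53 and 7.78 in dysplasia, 7.08, 6.66, 7.19 and 7.48 in unaltered lung, and 6.96, 7.19, 7.20, 7.30 and 7.24 in non-transgenic lung. Both lesions lay above non-transgenic lung, by little in adenocarcinoma replicate 4. Rfc5 was higher by 0.56 ± 0.14 in dysplasia than in unaltered lung (adjusted p = 0.00983; 0.0858 with the fixed block), while the difference of 0.36 ± 0.15 between adenocarcinoma and non-transgenic lung was not called (adjusted p = 0.0853). Rfc3 was higher by 0.37 ± 0.08 in dysplasia (adjusted p = 0.00307; 0.0735 with the fixed block) and by 0.30 ± 0.08 in adenocarcinoma (adjusted p = 0.0121). The call in adenocarcinoma was lost with labelled age and against non-transgenic replicates 4 and 5 alone (adjusted p up to 0.234). Rfc1, the large subunit, had a log2 fold change of 0.01 ± 0.08 in dysplasia (adjusted p = 0.951) and was called in none of the comparisons.

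Calls among the polymerase and primase genes varied by subunit. In dysplasia against unaltered lung 5 of 8 were higher, Pola1, Prim1, Prim2, Pole and Pold2. In adenocarcinoma against non-transgenic lung Pole was higher and Pola2 lower. Of all transcript clusters 15.1% were called higher in the first comparison. In the second 13.6% were called higher and 16.4% lower, so the calls in adenocarcinoma lie near the background. Prim1 (6771620), the catalytic subunit of primase, had 7.23, 7.07, 7.23 and 7.03 in adenocarcinoma, 6.96, 7.01, 7.18 and 6.98 in dysplasia, 6.46, 6.23, 6.47 and 6.44 in unaltered lung, and 7.09, 6.95, 7.09, 6.90 and 6.67 in non-transgenic lung. The unaltered arrays were below all 13 others. Prim1 was higher by 0.63 ± 0.08 in dysplasia than in unaltered lung (adjusted p = 0.000117) and lower by -0.54 ± 0.09 in unaltered than in non-transgenic lung (adjusted p = 0.00226). Dysplasia and non-transgenic lung differed by 0.09 ± 0.09 (adjusted p = 0.587).
Pole (6933422), the catalytic subunit of polymerase epsilon, had 6.08, 6.06, 6.05 and 6.05 in adenocarcinoma, 6.08, 6.03, 6.05 and 6.00 in dysplasia, 5.73, 5.45, 5.53 and 5.67 in unaltered lung, and 5.33, 5.57, 5.58, 5.84 and 5.66 in non-transgenic lung. The 8 lesion arrays covered a narrow range and lay above the 9 others. Pole was higher by 0.45 ± 0.08 in dysplasia than in unaltered lung (adjusted p = 0.00104) and by 0.47 ± 0.09 in adenocarcinoma than in non-transgenic lung (adjusted p = 0.000497). Pola2 (6871164), the regulatory subunit of polymerase alpha, had 7.07, 7.07, 7.05 and 6.96 in adenocarcinoma, 7.21, 7.05, 6.96 and 7.20 in dysplasia, 7.23, 7.18, 7.21 and 7.22 in unaltered lung, and 7.31, 7.44, 7.44, 7.41 and 7.36 in non-transgenic lung. Every transgenic array was below every non-transgenic array. Pola2 was lower by -0.35 ± 0.06 in adenocarcinoma (adjusted p = 0.000277) and by -0.29 ± 0.06 in dysplasia (adjusted p = 0.00323) than in non-transgenic lung.
Pola1, the catalytic subunit of the same polymerase, rose by 0.28 ± 0.07 in dysplasia against unaltered lung (adjusted p = 0.00921; 0.148 with the fixed block) and differed by 0.01 ± 0.07 between adenocarcinoma and non-transgenic lung (adjusted p = 0.955). Pold2, a small subunit of polymerase delta, rose by 0.37 ± 0.10 in dysplasia (adjusted p = 0.017), a call lost with the fixed block, with quantile normalization and without unaltered replicate 2 or 4 (adjusted p up to 0.0836). Prim2, the other primase subunit, rose by 0.34 ± 0.10 (adjusted p = 0.0279), a call lost without any 1 of 6 of the 8 arrays, all except dysplasia replicate 3 and unaltered replicate 3 (adjusted p up to 0.114). Pold1 and Pole2 were called in none of the comparisons.

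Single-strand binding and fragment joining had 3 measured genes, 0 of them called in dysplasia against unaltered lung. There 1 was higher at an unadjusted p under 0.05 in limma's test, as were 5375 of all 23238 transcript clusters. Called higher at the adjusted threshold were 15.1% of all transcript clusters. Rpa1 (6789725), the large subunit of the protein that coats single-stranded DNA, had 8.58, 8.53, 8.61 and 8.57 in adenocarcinoma, 8.84, 8.70, 8.67 and 8.95 in dysplasia, 8.77, 8.45, 8.64 and 8.68 in unaltered lung, and 8.83, 9.06, 9.09, 9.05 and 8.995 in non-transgenic lung. Adenocarcinoma was the tightest group and lay below both dysplasia and non-transgenic lung. Rpa1 was lower by -0.43 ± 0.08 in adenocarcinoma than in non-transgenic lung (adjusted p = 0.000364), and by -0.37 ± 0.08 in unaltered than in non-transgenic lung (adjusted p = 0.00634; 0.0615 with quantile normalization).
Fen1 (6871476), the nuclease that trims Okazaki fragments, had 7.07, 6.77, 6.89 and 6.73 in adenocarcinoma, 6.79, 6.83, 7.09 and 6.57 in dysplasia, 6.61, 6.27, 6.40 and 6.96 in unaltered lung, and 6.48, 6.44, 6.61, 7.10 and 7.08 in non-transgenic lung. All groups overlapped, and non-transgenic replicates 4 and 5 were as high as the highest lesion arrays. Its difference between dysplasia and unaltered lung was 0.26 ± 0.16 (adjusted p = 0.291). Rpa2 was called in adenocarcinoma against unaltered lung, at 0.26 ± 0.09 (adjusted p = 0.0471), a call lost without any 1 of 7 of the 8 arrays, all except unaltered replicate 4 (adjusted p up to 0.138).

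The 3 measured genes of nucleotide supply were all higher in dysplasia than in unaltered lung, where 15.1% of all transcript clusters were called higher. Tk1 (6792601), the thymidine kinase of dividing cells, had 5.65, 5.99, 5.98 and 5.71 in adenocarcinoma, 5.19, 5.66, 5.26 and 5.15 in dysplasia, 4.24, 4.18, 4.36 and 4.95 in unaltered lung, and 4.42, 4.42, 4.92, 4.52 and 5.07 in non-transgenic lung. The lesions lay above the 9 arrays without a lesion, the nearest being non-transgenic replicate 5. Mean levels of Tk1 were 4.43 in unaltered and 4.67 in non-transgenic lung. Both are dim, below the lower quartile of the levels on every array (4.97 to 5.11). Tk1 was higher by 0.88 ± 0.17 in dysplasia than in unaltered lung (adjusted p = 0.00207; 0.0754 with the fixed block), and within the animals by 0.20 to 1.48. In adenocarcinoma Tk1 exceeded non-transgenic lung by 1.16 ± 0.19 (adjusted p = 0.000141). The difference of 0.52 ± 0.20 between adenocarcinoma and dysplasia was not called (adjusted p = 0.111).
Tyms (6936981), thymidylate synthase, had 6.82, 6.84, 6.78 and 6.93 in adenocarcinoma, 6.80, 6.81, 6.93 and 6.61 in dysplasia, 6.31, 5.71, 6.37 and 6.54 in unaltered lung, and 6.44, 6.35, 6.47, 6.51 and 6.56 in non-transgenic lung. The lesions lay above both kinds of lung without lesions, and unaltered replicate 2 was the lowest array. Tyms was higher by 0.56 ± 0.12 in dysplasia than in unaltered lung (adjusted p = 0.00459; 0.124 with the fixed block). The difference of 0.37 ± 0.13 between adenocarcinoma and non-transgenic lung (adjusted p = 0.0457) was not called without any 1 of 8 of the 9 arrays, all except non-transgenic replicate 5 (adjusted p up to 0.11). Nor was it called with labelled sex, with labelled age, or against non-transgenic replicates 1 to 3 or 4 and 5 alone (adjusted p up to 0.541). Rrm1, the large subunit of ribonucleotide reductase, was higher by 0.50 ± 0.07 in dysplasia than in unaltered lung (adjusted p = 0.000106), lower by -0.37 ± 0.07 in unaltered than in non-transgenic lung (adjusted p = 0.00419), and within 0.12 ± 0.07 between adenocarcinoma and non-transgenic lung (adjusted p = 0.234).

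Uhrf1 (6851232), which recognises newly copied, hemimethylated DNA and recruits Dnmt1, had 7.90, 7.90, 7.87 and 7.84 in adenocarcinoma, 7.72, 7.96, 8.40 and 7.74 in dysplasia, 7.10, 7.04, 7.04 and 6.85 in unaltered lung, and 6.57, 6.47, 6.60, 7.06 and 6.81 in non-transgenic lung. Every lesion array was above all 9 other arrays. Uhrf1 was higher by 0.95 ± 0.13 in dysplasia than in unaltered lung (adjusted p = 0.000118), and by 0.61 to 1.36 within the animals. In adenocarcinoma it exceeded non-transgenic lung by 1.18 ± 0.14 (adjusted p = 4.83e-06), a difference of 0.94 (adjusted p = 0.000827) against replicates 4 and 5 alone. These were the largest log2 fold changes among the 42 genes in both comparisons.
Dnmt1 (6993722), the maintenance methyltransferase itself, had 8.90, 8.79, 8.84 and 8.91 in adenocarcinoma, 8.88, 8.83, 8.81 and 8.90 in dysplasia, 8.76, 8.54, 8.65 and 8.71 in unaltered lung, and 8.72, 8.80, 8.79, 8.79 and 8.72 in non-transgenic lung. Lesions and unaltered lung did not overlap, and the range over all arrays was narrow. Dnmt1 was higher by 0.19 ± 0.05 in dysplasia than in unaltered lung (adjusted p = 0.0146), a call lost with the fixed block, with quantile normalization and without unaltered replicate 2 (adjusted p = 0.142, 0.215 and 0.0644). Between adenocarcinoma and non-transgenic lung it differed by 0.10 ± 0.06 (adjusted p = 0.214).

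**Figure D3:**
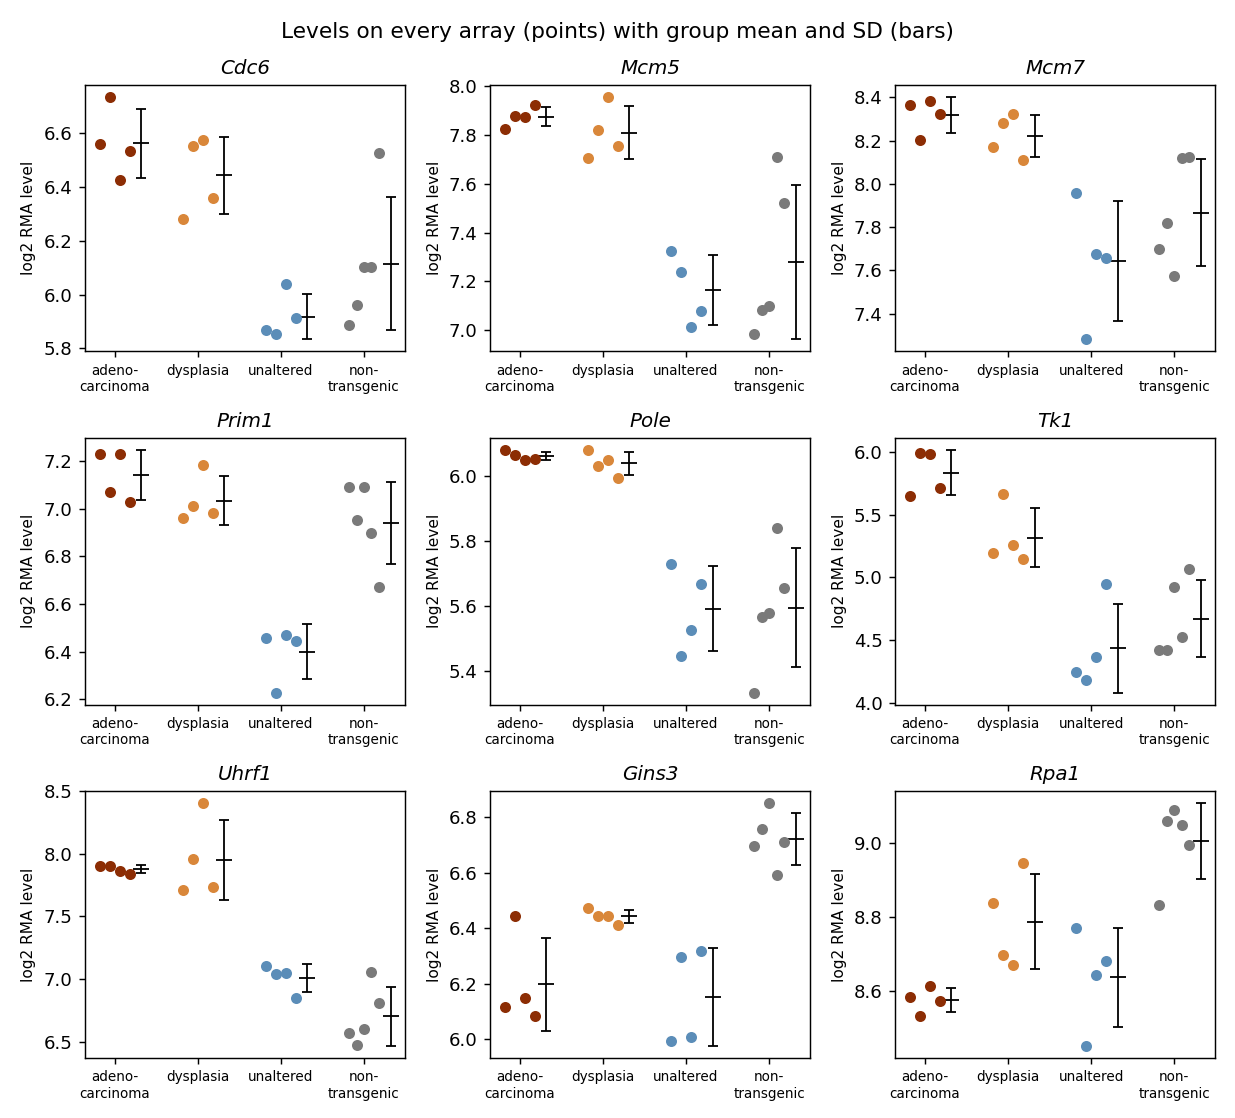
Log2 RMA level (y axis) of 9 named genes on each array (points) by group (x axis), with the group mean and SD as bars (n = 4, 4, 4 and 5). Tk1, Uhrf1 and Pole are higher on every lesion array than on the arrays without a lesion, Prim1 is lowest in unaltered lung, and Gins3 is highest in non-transgenic lung.

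**Figure D4:**
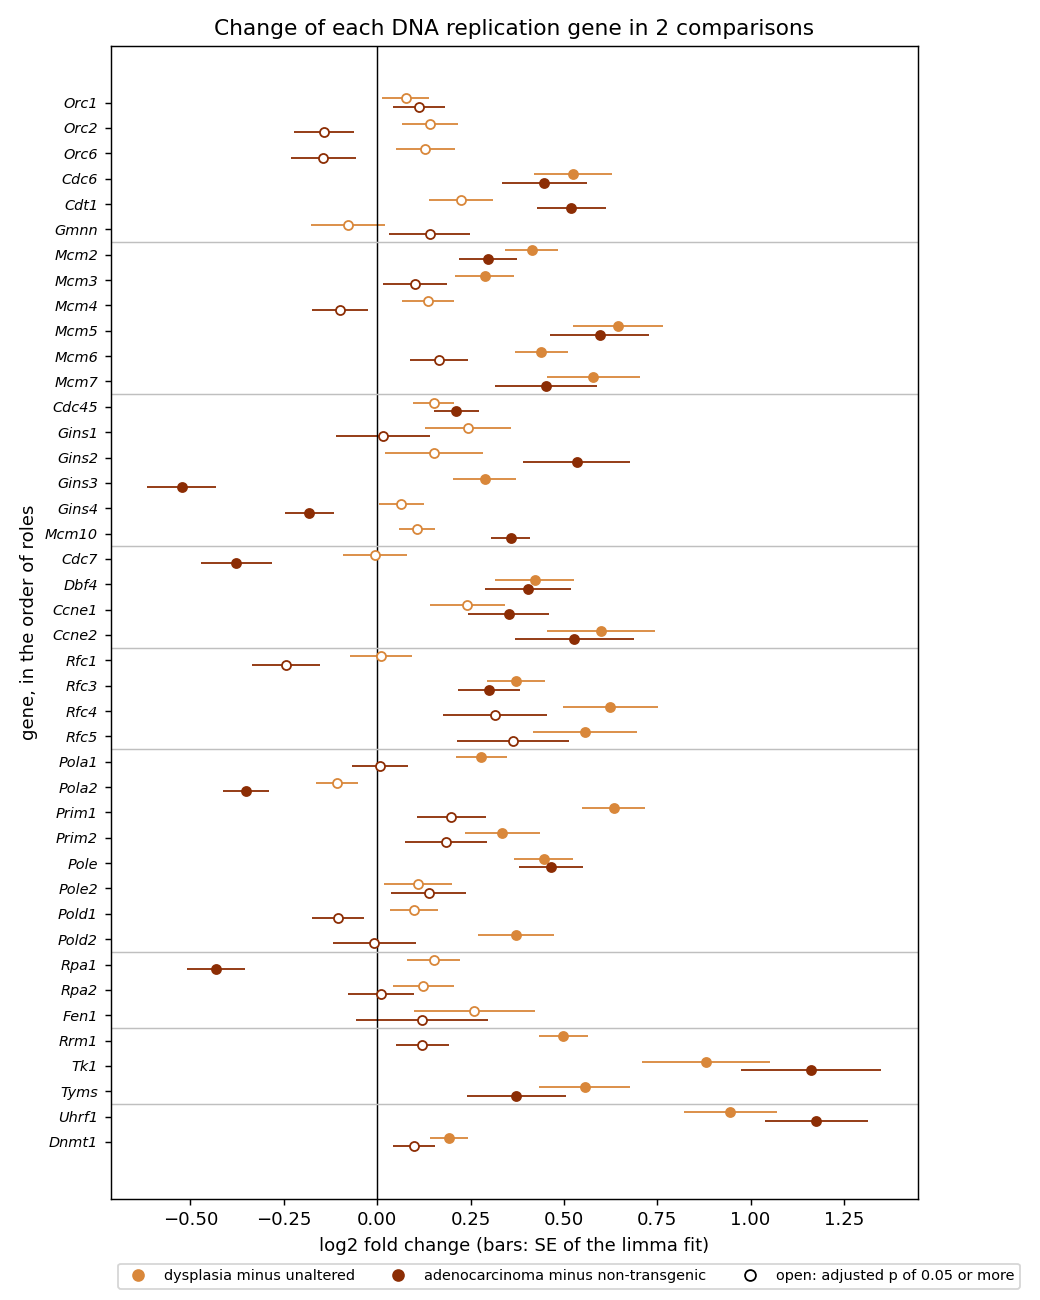
Log2 fold change (x axis) with its SE for the 42 genes (y axis, by role) in dysplasia minus unaltered lung and adenocarcinoma minus non-transgenic lung; open points have an adjusted p of 0.05 or more. Uhrf1 and Tk1 lie farthest to the right, and Gins3, Rpa1, Cdc7, Pola2 and Gins4 lie left of 0 with filled points in adenocarcinoma.

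Further genes of replication, which are not among the 46, were counted in the same comparisons. The shares of all transcript clusters to set these counts against are 15.1% higher and 5.32% lower in dysplasia against unaltered lung, and 13.6% higher and 16.4% lower in adenocarcinoma against non-transgenic lung. Of 38 measured, 11 were higher and 0 lower in dysplasia than in unaltered lung, with a median log2 fold change of 0.18 against 0.06 over all transcript clusters. At an unadjusted p under 0.05 in limma's test 17 were higher and 0 lower there, as were 5375 and 2303 of all 23238 transcript clusters. In all, 10 were higher and 3 lower in adenocarcinoma than in non-transgenic lung, with a median of 0.12 against 0.01. Ccna2, cyclin A2, was higher by 0.93 ± 0.10 in dysplasia (adjusted p = 1.92e-05) and by 0.99 ± 0.11 in adenocarcinoma (adjusted p = 2.58e-06). Asf1b, a histone chaperone, rose by 0.60 ± 0.15 and 0.76 ± 0.17 (adjusted p = 0.0119 and 0.00243). Tonsl, which binds new histones, rose by 0.24 ± 0.06 and 0.78 ± 0.07 (adjusted p = 0.0107 and 1.51e-07). The 3 lower genes, named after their values were seen, were Donson, Mcmbp and Timeless, and Donson, a component of the fork, had the largest fold change of them, -0.46 ± 0.09 (adjusted p = 0.000729).

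Of 13 measured genes of replication-linked repair, 8 were higher and 0 lower in dysplasia than in unaltered lung, where 15.1% of all transcript clusters were higher and 5.32% lower. Their median log2 fold change was 0.26, and at an unadjusted p under 0.05 in limma's test 10 were higher and 0 lower. At that threshold 5375 of all 23238 transcript clusters were higher and 2303 lower. In adenocarcinoma against non-transgenic lung 7 were higher and 1 lower, with a background of 13.6% and 16.4%. Chek1, the checkpoint kinase that guards stalled forks, rose by 0.79 ± 0.12 and 0.76 ± 0.13 in these comparisons (adjusted p = 0.000294 and 0.000221). The mean level of these 13 genes was 5.93 to 6.04 on the adenocarcinoma arrays, 5.96 to 5.98 in dysplasia, 5.65 to 5.74 in unaltered lung and 5.66 to 5.81 in non-transgenic lung.

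Of 11 measured genes of E2F factors and pocket proteins, 3 were higher and 0 lower in dysplasia than in unaltered lung, E2f5, E2f8 and Rbl1, with 15.1% of all transcript clusters higher and 5.32% lower. The median log2 fold change of the 11 was -0.03, and 7 of them had a negative one. In adenocarcinoma against non-transgenic lung 2 were higher and 3 lower, which is near the background of 13.6% and 16.4%, and the median was -0.05. E2f8, an atypical repressor, rose by 0.26 ± 0.09 in dysplasia (adjusted p = 0.0419) and 0.60 ± 0.09 in adenocarcinoma (adjusted p = 0.000106). Rb1, the retinoblastoma gene, was lower in adenocarcinoma than in non-transgenic lung by -1.04 ± 0.13 (adjusted p = 1.45e-05), and E2f6 by -0.53 ± 0.09 (adjusted p = 0.000175). E2f1, the best known activator of these genes and named after its values were seen, differed by -0.08 ± 0.08 in both comparisons and was not called (adjusted p = 0.511 and 0.524).

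Of 23 measured mitosis genes, 21 were higher in dysplasia than in unaltered lung, with a median log2 fold change of 0.74, and 22 in adenocarcinoma than in non-transgenic lung, with a median of 0.86. The shares of all transcript clusters called higher were 15.1% and 13.6%. Kif23, a kinesin of cell division, rose by 1.26 ± 0.11 and 2.07 ± 0.12 (adjusted p = 1.99e-06 and 1.62e-09). Prc1, a bundler of the spindle midzone, rose by 1.27 ± 0.15 and 1.58 ± 0.17 (adjusted p = 5.4e-05 and 1.76e-06). The mean level of the mitosis genes was 6.89 to 7.07 in adenocarcinoma, 6.86 to 7.30 in dysplasia, 6.15 to 6.51 in unaltered lung and 6.01 to 6.23 in non-transgenic lung. The 42 replication genes averaged 7.12 to 7.22 in adenocarcinoma, 7.11 to 7.24 in dysplasia, 6.72 to 6.92 in unaltered lung and 6.89 to 7.06 in non-transgenic lung. The difference between these lists was not tested.

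Markers of other cells that divide or that could be cut out with the lesion moved as well. In dysplasia against unaltered lung 0 of 7 macrophage, 0 of 8 T and NK cell and 0 of 6 B cell markers were called in limma's test. At an unadjusted p under 0.05 in that test there were 2 lower macrophage markers, 1 higher and 1 lower T and NK cell marker and 0 B cell markers. Of all 23238 transcript clusters 5375 were higher and 2303 lower at that threshold. In the same comparison 10 of 10 endothelial, 5 of 9 fibroblast, 4 of 6 neutrophil, 3 of 6 type I cell and 2 of 4 red blood cell precursor markers were lower, with 5.32% of all transcript clusters lower. Higher there were 8 of 9 type II cell markers, 1 of 6 type I cell markers and 1 of 7 club and ciliated cell markers, with 15.1% of all transcript clusters higher, and the 7 club and ciliated cell markers all had positive fold changes with a median of 1.01. In adenocarcinoma against non-transgenic lung 5 of 7 macrophage markers were higher and 1 lower, while 7 of 8 T and NK cell and 5 of 6 B cell markers were lower. Lower there were also 10 of 10 endothelial, 5 of 6 neutrophil, 5 of 9 fibroblast, 4 of 6 type I cell, 2 of 4 red blood cell precursor and 1 of 7 club and ciliated cell markers, and higher were 8 of 9 type II cell, 2 of 9 fibroblast and 1 of 6 type I cell markers, with 16.4% of all transcript clusters lower and 13.6% higher. Mean levels of the macrophage markers were 8.57 to 8.94 in adenocarcinoma, 8.41 to 8.47 in dysplasia, 8.52 to 8.66 in unaltered lung and 7.99 to 8.58 in non-transgenic lung. Those of 10 endothelial markers were 9.05 to 9.11 in adenocarcinoma, 9.87 to 10.69 in dysplasia, 10.87 to 11.15 in unaltered lung and 11.40 to 11.56 in non-transgenic lung. Those of 9 type II cell markers were 12.84 to 12.87 in adenocarcinoma, 12.63 to 12.74 in dysplasia, 12.29 to 12.33 in unaltered lung and 12.00 to 12.20 in non-transgenic lung. The RMA levels do not reach 0, so they do not show which cell types were absent. The part of cell make-up in the changes of the replication genes was not tested.

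**Figure D5:**
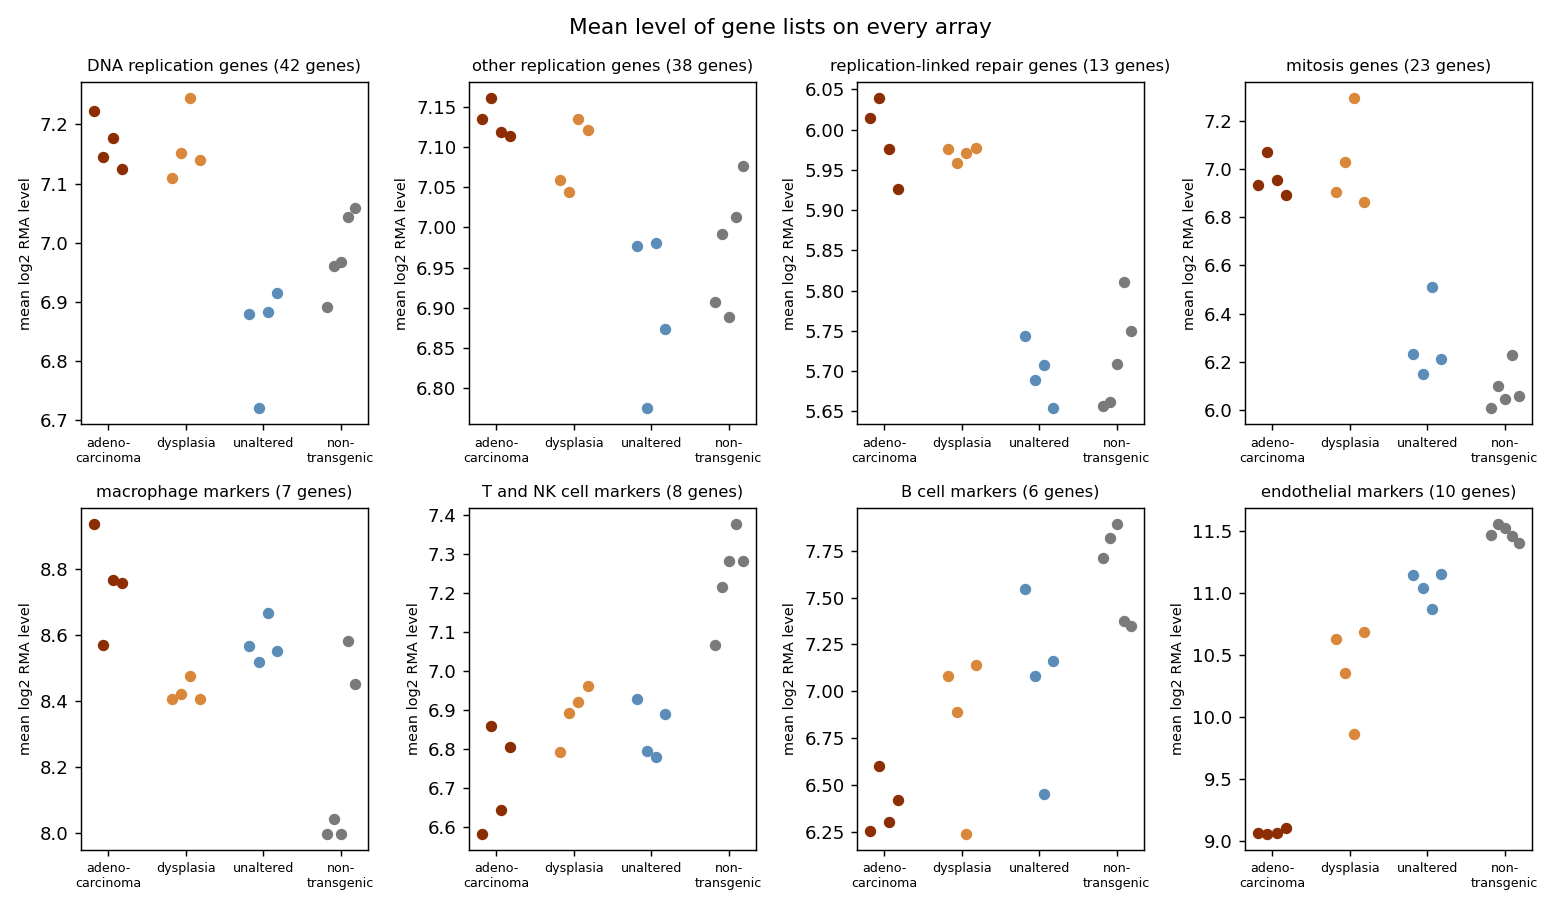
Mean log2 RMA level (y axis) of 8 gene lists on each array (points) by group (x axis). Replication, repair and mitosis genes are higher on the adenocarcinoma and dysplasia arrays than on the unaltered arrays, and endothelial markers are lower.

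Of the 42 genes, 9 were called in none of the 6 comparisons: Orc1, Orc2, Gmnn, Mcm4, Gins1, Rfc1, Pole2, Pold1 and Fen1. Orc1, Gmnn and Gins1 had mean levels under 5 over all arrays, a limit used as a filter on dim transcript clusters. Tk1 had means under 5 in unaltered and in non-transgenic lung, though not over all arrays.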

How the data were processed

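RNA of cells cut by laser microdissection was amplified and hybridised to 17 Affymetrix Mouse Exon 1.0 ST arrays. The deposited values are log2 levels that the authors made with RMA in Expression Console, 1 per core transcript cluster and array, per the labels, and the genome build of the array annotation is not given in the sources used here. They were used as deposited for 23238 transcript clusters, of which 14939 carried 1 gene symbol, 989 several and 7310 none. Array medians ran from 6.67 to 6.85, and Spearman correlations between arrays from 0.947 to 0.992. The number of arrays limits the precision.

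All 6 comparisons came from 1 fit of 4 group means in limma 3.58.1 (R 4.3.3, statmod 1.5.0), with the animal label as a random block (consensus correlation 0.245), moderated two-sided tests and p-values adjusted over every transcript cluster by the Benjamini-Hochberg method. SE is the standard error of a fitted difference. A replicate is 1 array, and with 3 arrays whose labels name 2 animals and 13 animal labels in all, p-values measure the spread between these arrays. Pairing of dysplasia with unaltered lung comes from shared animal labels, and deviations of paired arrays correlated at 0.207, 0.082, 0.155 and -0.0056, against -0.230 to 0.145 for other pairs. The scripts were tested on simulated data.

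Values on every array are given for the 2 genes of each role with the largest fold change in adenocarcinoma against non-transgenic lung and in dysplasia against unaltered lung, and for genes called against most of their role. From the other lists up to 4 genes with the largest fold changes among the called were named. The genes and lists were chosen with earlier results of these data known.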

Additional observations from a re-analysis of the deposited data

Results flagged for a closer look

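A single array lay far from the others of its group in 9 of 168 groups of 4 or 5 arrays tested (5.36%), and chance flags about 1 in 20. Of the 9, 4 were adenocarcinoma arrays, 1 a dysplasia array, 4 unaltered arrays and 0 non-transgenic arrays. In adenocarcinoma, replicate 1 had the highest level of Dbf4 (7.43, the others 7.08 to 7.13) and of Rfc4 (7.19, the others 6.79 to 6.86) and the lowest of Gmnn (4.69, the others 4.90), and replicate 2 had the lowest level of Mcm2 (7.80, the others 8.07 to 8.10). Without adenocarcinoma replicate 1 the call of Dbf4 against non-transgenic lung was lost (adjusted p = 0.0539). In dysplasia, replicate 1 had the lowest level of Mcm10 (6.48, the others 6.58 to 6.59). In unaltered lung, replicate 2 had the lowest level of Prim1 (6.23, the others 6.44 to 6.47) and of Rrm1 (8.38, the others 8.62 to 8.66), and the calls of both genes in dysplasia against unaltered lung were kept without any 1 array. Unaltered replicate 3 had the highest level of Gins4 (8.83, the others 8.59 to 8.63), and unaltered replicate 4 the lowest of Orc1 (3.92, the others 4.05).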

How the results depend on the processing

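Each of 103 results was recomputed under up to 14 alternatives and without each array of its groups in turn, with the consensus correlation of the reported fit kept in the latter. Of the 22 genes called in dysplasia against unaltered lung, 8 were called in every setting, and likewise 0 of 9 in unaltered against non-transgenic lung, 3 of 12 in dysplasia against non-transgenic lung, 6 of 21 in adenocarcinoma against non-transgenic lung, 0 of 1 in adenocarcinoma against dysplasia and 2 of 20 in adenocarcinoma against unaltered lung. No called gene of the first 5 comparisons changed sign in a setting, while genes that were not called did, such as 10 in unaltered against non-transgenic lung with quantile normalization and 11 in adenocarcinoma against dysplasia with labelled age. With the age covariate the fold changes of Ccne2 and Rpa2 in adenocarcinoma against unaltered lung turned to -0.112 and -0.0691, and the cause was not tested.

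The 22 genes called in dysplasia against unaltered lung numbered 9 with a fixed replicate block for the animal, 19 with no replicate block and 12 without the arrays that name 2 animals. Of all transcript clusters 6.18%, 10.7% and 7.59% were called higher in these settings, and 1.92%, 3.38% and 2.9% lower. The 9 of unaltered against non-transgenic lung numbered 4 with labelled sex, 0 with labelled age, 4 with only these groups in the fit, 14 over transcript clusters with 1 symbol, 4 with quantile normalization, 5 with cyclic loess and 3 without the arrays that name 2 animals. Over transcript clusters with 1 symbol, 573 of 14939 were called higher and 2770 lower. In the other settings, in that order, 1.34%, 0.405%, 1.19%, 4.18%, 4.23% and 1.09% of all transcript clusters were called higher. Called lower there were 6.89%, 0.37%, 4.94%, 3.54%, 4.18% and 3.64%. The 12 of dysplasia against non-transgenic lung numbered 6 with labelled sex, 21 with array weights, 20 against non-transgenic replicates 1 to 3 and 5 against replicates 4 and 5. In that order, 5.56%, 11.4%, 11.3% and 6.77% of all transcript clusters were called higher. Called lower were 7.5%, 13%, 11.1% and 10.3%. The 21 of adenocarcinoma against non-transgenic lung numbered 8 with labelled age and 9 against replicates 4 and 5. Of all transcript clusters 6.6% and 10.2% were called higher in these 2 settings, and 11.9% and 15.7% lower. The 1 of adenocarcinoma against dysplasia numbered 0 with labelled age, 3 with only these groups in the fit, 2 over transcript clusters with 1 symbol, 2 with quantile normalization, 4 with array weights and 0 without the arrays that name 2 animals. Over transcript clusters with 1 symbol, 1061 of 14939 were called higher and 1725 lower. In the other settings, in that order, 0.0818%, 4.81%, 6.49%, 10.5% and 2.03% of all transcript clusters were called higher. Called lower there were 1.43%, 8.06%, 6.69%, 12.7% and 4.78%. The 20 of adenocarcinoma against unaltered lung numbered 2 with labelled age, where 2.31% of all transcript clusters were called higher and 4.08% lower. Leaving out 1 array at a time gave 19 to 22, 4 to 11, 8 to 13, 16 to 22, 0 to 2 and 15 to 19 calls in these 6 comparisons, in the order above. The fixed block could be fitted for dysplasia against unaltered lung alone.

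Over all transcript clusters, the 4740 calls of dysplasia against unaltered lung numbered 1881 with the fixed block and 2437 without the arrays that name 2 animals. The 3317 of unaltered against non-transgenic lung numbered 1912 with labelled sex, 180 with labelled age, 1425 with only these groups, 1793 with quantile normalization, 1955 with cyclic loess, 1099 without the arrays that name 2 animals and 1886 without unaltered replicate 2. With labelled age, 4062 calls of dysplasia against non-transgenic lung became 2394, 6980 of adenocarcinoma against non-transgenic lung became 4308, 2780 of adenocarcinoma against dysplasia became 352 and 6241 of adenocarcinoma against unaltered lung became 1483. Adenocarcinoma against dysplasia also gave 5378 with array weights and 1583 without the arrays that name 2 animals. Calls of dysplasia against unaltered lung were higher in dysplasia in 73.9% as reported, 48.5% with quantile normalization and 53.1% with cyclic loess, and those of unaltered against non-transgenic lung higher in 17.3%, 54.2% and 50.3%. The median of the 42 genes minus that of all transcript clusters in dysplasia against unaltered lung was 0.21, 0.21 and 0.22 in these settings. No measured gene of the set had several transcript clusters, so averaging them was not run. Age and group cannot be told apart outside dysplasia against unaltered lung, and array levels give no depth.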
